A study of Mus musculus with 8 samples.

Results

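The granulocyte and mast cell marker genes followed here are S100a8, S100a9, Mmp8, Mpo, Ltf, Camp, Ngp, Prtn3, Cpa3 and Ms4a2. They were taken by symbol from the probe table, every probe of each gene included. All 10 were on the array, with 15 probes, out of 18138 gene symbols and 25697 probes in all. Granulocytes and mast cells are leukocytes that store proteases, antimicrobial proteins and mediators in cytoplasmic granules. Neutrophils fill their granules in sequence as they mature in the marrow. The azurophil proteins Mpo and Prtn3 are made early, and specific granule proteins such as Ltf, Camp and Ngp are made later. Mast cells instead carry carboxypeptidase A3 (Cpa3) and the high-affinity IgE receptor, whose beta chain is Ms4a2. Marrow grown in GM-CSF is known to give macrophages, dendritic cells and granulocytes side by side. Whether the signal of these genes came from other cells of the culture or from the macrophages was not tested.

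RNA was measured on 8 Illumina bead arrays, 2 for each of 4 groups of bone marrow-derived macrophages from female C57bl/6J mice, wild type (WT) or iNOS deficient (iNOS-/-). All marrow cells were grown for 7 days with GM-CSF at 10 ng/ml and came from animals 8 weeks old. Unstimulated cells received nothing further, and M1 cells received LPS at 200 ng/ml with IFN-γ at 10 ng/ml for 6 h. The labels do not say whether the 2 arrays of a group came from separate mice or cultures, so p-values measure the spread between arrays, which may be technical. The iNOS-/- animals carried a constitutive disruption of Nos2 (strain B6.129P2-Nos2tm1Lau/J in the study's methods), so every cell of the culture lacked the intact gene.

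A probe was detected where its detection p-value, the share of negative control probes that were brighter, lay under 0.05. Between 46.0% and 49.3% of the probes were detected on each array. Intensities were scaled between arrays and are given as scaled intensity, in which an undetected probe lies around 0 and can be negative. The 13868 probes detected on at least 2 arrays were tested on the log2 scale with limma, and a difference was called at an adjusted p under 0.05. The Nos2 probe, which starts at base 3546 of its transcript, had a scaled intensity of 177 and 132 in WT M1 and of 180 and 204 in iNOS-/- M1. That difference was not called (log2 fold change 0.32, standard error 0.32, adjusted p = 0.445 from limma), so the probe did not check the genotype labels, and every direction given here takes the genotypes from the labels. In pairs of arrays the median absolute log2 difference per probe was 0.161 to 0.187 within groups, 0.344 to 0.363 between unstimulated iNOS-/- and WT M1, and 0.480 to 0.488 between unstimulated iNOS-/- and unstimulated WT.

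The cultures carried macrophage markers throughout: 10 of the 11 macrophage and monocyte markers listed were detected on both arrays of every group, the exception being Ccr2. None of the 4 lymphocyte markers on the array was detected on any array. Besides Cpa3 and Ms4a2, 11 of the 19 mast cell and basophil genes on the array passed the detection filter, described further on, whereas Ms4a2, Cma1 and Tpsab1 were detected on no array. In bulk RNA such as this, fewer cells of a type and less RNA per cell cannot be told apart. No cell type is therefore assigned to the signal of any gene below.

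The probes are 50-base oligonucleotides, and the values below refer to what each of them captures. Those shown are the S100a8 probe, bright on every array, the probes of Camp and Ngp, the specific granule genes dark in unstimulated WT, an Mpo probe that was dark throughout, and both Cpa3 probes whose levels differed in behaviour. They are written 5′ to 3′ in lower case, with no part singled out.
S100a8: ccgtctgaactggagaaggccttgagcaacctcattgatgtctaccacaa
Camp: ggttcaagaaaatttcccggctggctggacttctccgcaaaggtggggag
Ngp: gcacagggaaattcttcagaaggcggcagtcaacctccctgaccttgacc
Mpo, from base 1721: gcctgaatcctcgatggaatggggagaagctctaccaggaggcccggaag
Cpa3, from base 75: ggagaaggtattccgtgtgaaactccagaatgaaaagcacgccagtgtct
Cpa3, from base 1136: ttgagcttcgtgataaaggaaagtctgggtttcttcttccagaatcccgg

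The region just before the start of a gene holds many of the sites that set its transcription. C/EBP factors and PU.1 act on granule genes in neutrophil precursors, and GATA factors act on mast cell genes. The 250 bases upstream of the RefSeq start (GRCm38.p6), available for 10 of the 10 genes, are printed for S100a8 and S100a9, which are adjacent protein-coding genes on chromosome 3, for Ngp, which held the most C/EBP matches, and for Cpa3. Capitals mark matches, on either strand, to TTNNGNAA for C/EBP, AGGAAG for PU.1, and AGATAA or TGATAA for GATA.
S100a8, chr3:90668821-90669070, plus strand: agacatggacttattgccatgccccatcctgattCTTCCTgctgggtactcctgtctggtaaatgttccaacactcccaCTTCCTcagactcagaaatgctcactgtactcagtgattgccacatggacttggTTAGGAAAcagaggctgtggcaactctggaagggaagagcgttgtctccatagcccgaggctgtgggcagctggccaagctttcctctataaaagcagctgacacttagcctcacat
S100a9, chr3:90695722-90695971, minus strand: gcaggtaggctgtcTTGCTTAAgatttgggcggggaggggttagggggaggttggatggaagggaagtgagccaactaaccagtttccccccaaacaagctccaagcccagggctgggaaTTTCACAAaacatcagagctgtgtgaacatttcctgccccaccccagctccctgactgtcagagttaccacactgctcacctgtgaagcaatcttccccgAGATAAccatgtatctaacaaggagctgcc
Ngp, chr9:110419558-110419807, plus strand: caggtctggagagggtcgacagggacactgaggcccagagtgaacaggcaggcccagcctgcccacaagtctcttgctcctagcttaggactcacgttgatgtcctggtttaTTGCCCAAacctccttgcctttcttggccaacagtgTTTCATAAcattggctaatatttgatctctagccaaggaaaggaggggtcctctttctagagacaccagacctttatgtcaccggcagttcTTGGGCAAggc
Cpa3, chr3:20242182-20242431, minus strand: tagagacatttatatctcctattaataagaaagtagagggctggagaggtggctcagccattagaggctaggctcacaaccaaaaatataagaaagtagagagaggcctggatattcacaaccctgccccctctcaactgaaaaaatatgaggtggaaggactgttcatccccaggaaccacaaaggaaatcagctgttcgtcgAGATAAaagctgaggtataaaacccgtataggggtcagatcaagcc

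TTNNGNAA was found in 5 of the 10 upstream windows, with 3 matches in Ngp, 2 each in S100a9, Mmp8 and Ltf, and 1 in S100a8. It is present in 36.8% of all 32851 windows of this length. AGGAAG, held by 29.5% of all windows, was found in S100a8, Mmp8, Mpo, Ltf, Camp and Prtn3. A GATA match, held by 16.6% of all windows, was found in S100a9, Ltf, Cpa3 and Ms4a2, the last with 3 matches. None of the matches overlapped another. These are matches of letters in a short window and not evidence of binding.

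Detection alone separated the genes. S100a8, Mmp8 and the Ltf probe at base 2225 were detected on all 8 arrays. S100a9, Camp, Ngp and the Cpa3 probes at bases 1136 and 1259 were detected on the 6 arrays of WT M1, unstimulated iNOS-/- and iNOS-/- M1 and on neither array of unstimulated WT. The Cpa3 probe at base 75 was detected on 7 arrays. The 3 Mpo probes, the Prtn3 probe and the Ms4a2 probe were detected on no array, and the Ltf probe at base 2661 on WT M1 replicate 2 alone.

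**Figure D1:**
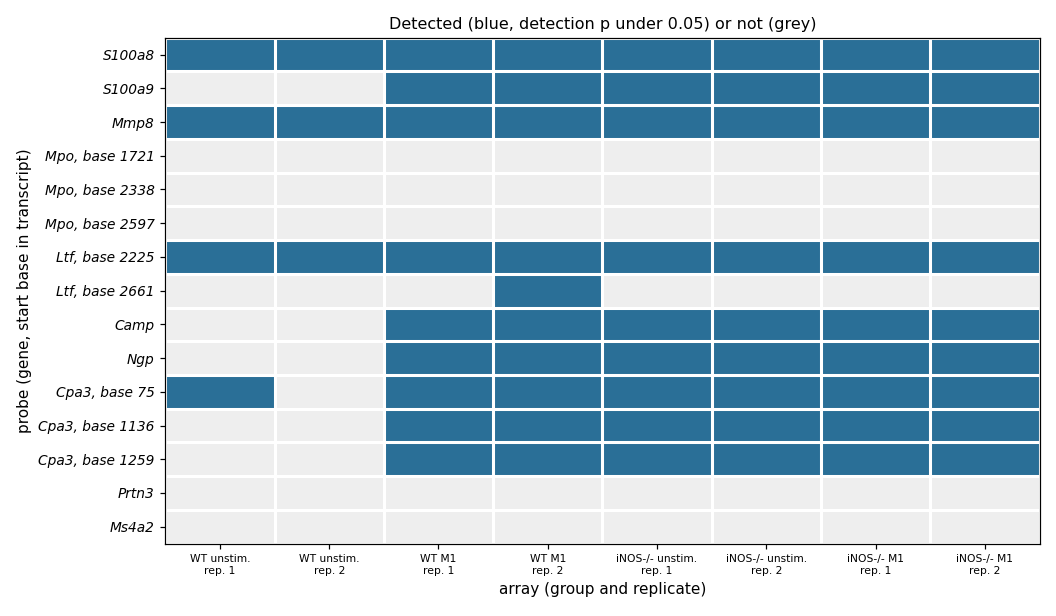
Detection of the 15 probes (vertical axis, with the start base in the transcript where a gene has several) on the 8 arrays (horizontal axis, group and replicate). Blue marks a detection p-value under 0.05: 5 probes are blue everywhere except in unstimulated WT, and the Mpo, Prtn3 and Ms4a2 probes are grey on every array.

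Of the 15 probes, 9 probes of 7 genes passed the detection filter and were tested. The 5 probes that were dark in unstimulated WT passed it through the other groups and so had to differ from that group, which makes the counts against unstimulated WT a description. Between the unstimulated genotypes 8 of the 9 probes were called higher in iNOS-/-, while 16.7% of all tested probes were called higher. Mmp8 was called lower, as were 15.4% of all probes. Between iNOS-/- M1 and WT M1, 6 of the 9 were higher and 0 lower, against 22.9% and 25.3% of all probes. After activation of WT cells 6 were higher and 1 lower, against 20.8% and 14.3% of all probes. After activation of iNOS-/- cells 5 were higher and 0 lower, against 25.2% and 25.1% of all probes. Per gene, the median log2 fold change over the 7 tested genes was 1.36 between the M1 groups and 1.71 for activation of iNOS-/- cells, where the medians of all probes were -0.03 and 0.00. With undetected groups set to their bounds, it was 0.56 between the unstimulated groups and 2.00 for activation of WT cells, where the medians of all probes were 0.00 and 0.09.

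**Figure D2:**
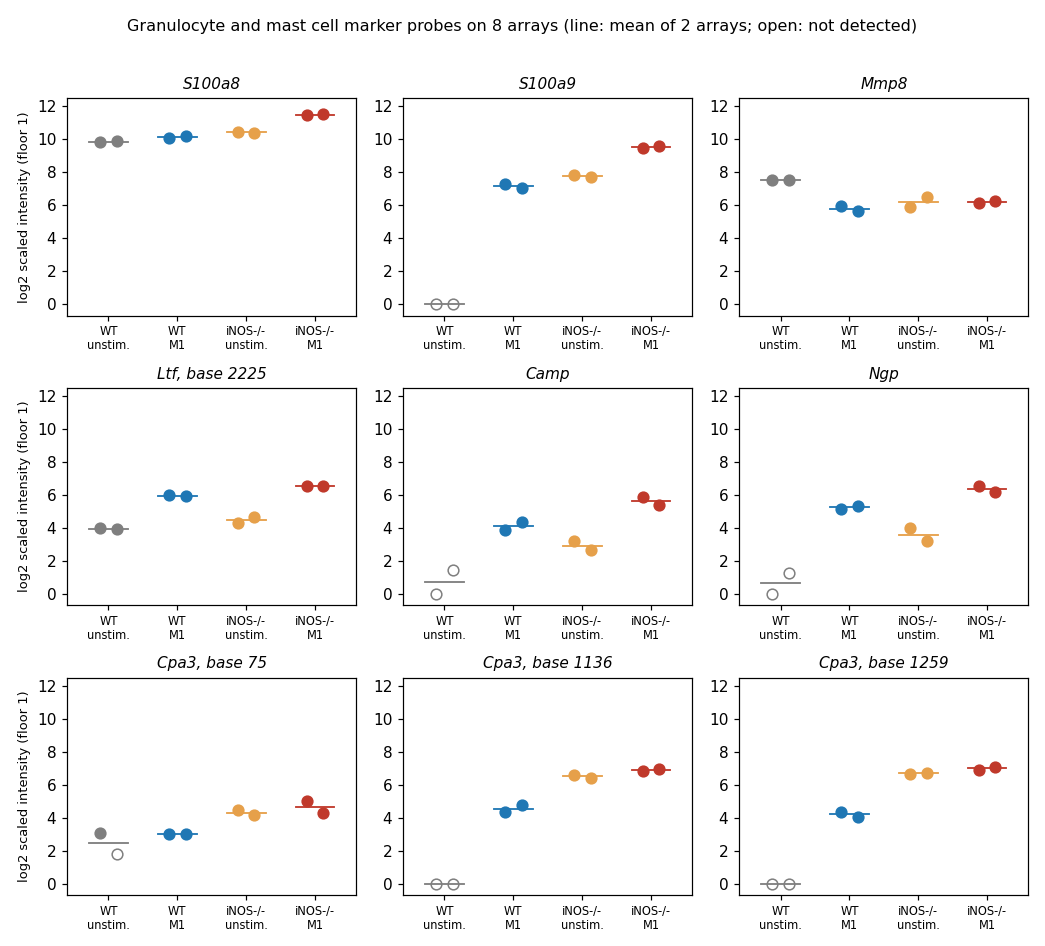
The log2 scaled intensity (vertical axis, values under 1 set to 1) of the 9 tested probes on each array, by group (horizontal axis). Points are arrays, lines are means of 2 arrays and open points are undetected. S100a9 and the Cpa3 probes at bases 1136 and 1259 sit at the floor in unstimulated WT, and Mmp8 is highest there.

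S100a8 and S100a9 encode the subunits of calprotectin, a calcium- and zinc-binding complex that is abundant in the cytosol of neutrophils and monocytes. S100a8 had a scaled intensity of 920 and 933 in unstimulated WT, 1064 and 1196 in WT M1, 1402 and 1336 in unstimulated iNOS-/-, and 2839 and 2945 in iNOS-/- M1. The 4 groups did not overlap, and iNOS-/- M1 was the brightest. S100a8 was 2.56-fold higher in iNOS-/- M1 than in WT M1 (log2 fold change 1.36, standard error 0.09, adjusted p = 0.000388 from limma). It rose 2.11-fold on activation of iNOS-/- cells (adjusted p = 0.000517 from limma). In WT cells its change on activation was 1.22-fold and did not pass the test (adjusted p = 0.0681 from limma). It was called higher there under neqc (adjusted p = 0.0214), quantile normalization (0.0408), an intercept in the scaling line (0.0393), a floor of 16 in place of 1 (0.0295), a stricter detection filter (0.0449) and an intensity trend (0.00720). Between the unstimulated genotypes it was 1.48-fold higher in iNOS-/- (adjusted p = 0.00920), a call that was lost without WT unstimulated replicate 1 (adjusted p = 0.0507) or without iNOS-/- unstimulated replicate 1 (adjusted p = 0.0550).

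S100a9, the partner subunit, had a scaled intensity of -1.14 and 0.178 in unstimulated WT, 153 and 132 in WT M1, 230 and 214 in unstimulated iNOS-/-, and 699 and 757 in iNOS-/- M1. S100a8 was thus detected in unstimulated WT cells while its partner was not. S100a9 was at least 39.4-fold higher in unstimulated iNOS-/- than in unstimulated WT cells (adjusted p = 1.37e-05 from limma). Such bounds set the bright group against the lowest signal of a detected probe on the dim arrays. The adjusted p printed beside a bound comes from the fit with values under 1 set to 1, not from the bound. For a probe dark in unstimulated WT it is a description. Activation raised it at least 25.3-fold in WT (adjusted p = 1.16e-05) and 3.28-fold in iNOS-/- cells (adjusted p = 0.000192). The bounds depend on the scaling: those of S100a9 were 10.7-fold between the unstimulated groups and 6.75-fold for WT activation under neqc, and 21.3-fold and 13.7-fold with an intercept. Between the M1 groups it was 5.11-fold higher in iNOS-/- (log2 fold change 2.35, standard error 0.11, adjusted p = 0.000178). The order of its groups was the same as for S100a8, with no overlap between neighbours.

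The order was different for Mmp8, the neutrophil collagenase. Its scaled intensity was 182 and 187 in unstimulated WT, 60.9 and 50.5 in WT M1, 60.1 and 88.8 in unstimulated iNOS-/-, and 70.4 and 75.0 in iNOS-/- M1. Unstimulated WT was brightest and did not overlap any other group, while unstimulated iNOS-/- and iNOS-/- M1 overlapped. Mmp8 fell by 1.73 on the log2 scale on activation of WT cells (standard error 0.21, adjusted p = 0.00312 from limma). It was lower by 2.52-fold in unstimulated iNOS-/- than in unstimulated WT cells (adjusted p = 0.00747). Neither activation of iNOS-/- cells (log2 fold change -0.01, standard error 0.21, adjusted p = 0.979) nor genotype within M1 (0.39, standard error 0.21, adjusted p = 0.180) passed the test, though the latter was called under neqc (adjusted p = 0.0263).

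Lactoferrin (Ltf), cathelicidin (Camp) and the neutrophilic granule protein (Ngp), a relative of the cathelicidins, are among the proteins of the specific granules. Their values do not stand for all neutrophil granule genes, since Mmp8 followed the other order given above. The Ltf probe at base 2225 had a scaled intensity of 15.9 and 15.2 in unstimulated WT, 64.3 and 60.3 in WT M1, 19.7 and 25.6 in unstimulated iNOS-/-, and 94.6 and 92.6 in iNOS-/- M1. Both M1 groups lay above both unstimulated groups. Activation raised Ltf 4.005-fold in WT (adjusted p = 0.000569 from limma) and 4.16-fold in iNOS-/- cells (adjusted p = 0.000246). The difference between these responses was 0.06 on the log2 scale with a standard error of 0.20 (adjusted p = 0.848). Ltf was 1.503-fold higher in iNOS-/- M1 than in WT M1 (adjusted p = 0.0203) and 1.45-fold higher in unstimulated iNOS-/- than in unstimulated WT cells (adjusted p = 0.0396). The first of these calls was lost without any M1 array in turn (adjusted p = 0.0605 to 0.0891). The second was lost under, among others, neqc, quantile normalization, an intercept in the scaling line and with each array left out except iNOS-/- unstimulated replicate 1.

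Camp had a scaled intensity of -1.14 and 2.77 in unstimulated WT, 14.6 and 20.2 in WT M1, 9.14 and 6.26 in unstimulated iNOS-/-, and 59.6 and 41.4 in iNOS-/- M1. Ngp had a scaled intensity of -5.55 and 2.41 in unstimulated WT, 35.6 and 40.1 in WT M1, 15.98 and 9.02 in unstimulated iNOS-/-, and 93.8 and 71.5 in iNOS-/- M1. Both genes were dark in unstimulated WT, dim in unstimulated iNOS-/- and brightest in iNOS-/- M1, with no overlap between groups. Activation of iNOS-/- cells raised Camp 6.57-fold (adjusted p = 0.00931 from limma, and 0.0526 without unstimulated iNOS-/- replicate 2) and Ngp 6.82-fold (adjusted p = 0.00643, and 0.0519 when the scaling line had an intercept). In WT cells the rise was at least 3.05-fold for Camp (adjusted p = 0.00750) and at least 6.71-fold for Ngp (adjusted p = 0.00213). Under neqc these bounds were 1.38-fold and 2.23-fold, and with a floor of 16 Camp was not called there (adjusted p = 0.695). Between the unstimulated genotypes Camp was at least 1.34-fold higher in iNOS-/- (adjusted p = 0.0304) and Ngp at least 2.13-fold (adjusted p = 0.00909). With a floor of 16, which lies above every Camp and Ngp value of both unstimulated groups, neither was called (both adjusted p = 1). Fitting an intercept also ended that last pair of calls (adjusted p = 0.166 and 0.0923), and Camp had no bound above 1. The Camp call was also lost under neqc (adjusted p = 0.106), without unstimulated WT replicate 1 (adjusted p = 0.0702), without either unstimulated iNOS-/- array (0.136 and 0.0791) and without either WT M1 array (0.0543). Between the M1 groups Camp was 2.90-fold and Ngp 2.17-fold brighter in iNOS-/-, which did not pass the test (adjusted p = 0.0629 and 0.116). Both were called under neqc (adjusted p = 7.51e-05 and 0.000229) and with a floor of 16 (adjusted p = 0.00526 and 0.00386).

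Myeloperoxidase (Mpo) and proteinase 3 (Prtn3) are azurophil granule enzymes made in promyelocytes. The scaled intensity of the 3 Mpo probes ran from -5.73 to 4.17 over the 8 arrays, and that of Prtn3 from -3.93 to 5.89. Their lowest detection p-values were 0.172 and 0.0526, so no array gave a level above background. For Ltf, the probe at base 2661 stayed between -2.74 and 7.81 and did not pass the filter, whereas the probe at base 2225 was detected on every array. The probes of that gene therefore disagreed, and the Ltf values above are those of the probe at base 2225.

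Cpa3 encodes a metalloprotease stored in mast cell granules. Its probe at base 1136 had a scaled intensity of -1.58 and -1.16 in unstimulated WT, 20.2 and 26.8 in WT M1, 96.5 and 84.8 in unstimulated iNOS-/-, and 114 and 121 in iNOS-/- M1. Its probe at base 1259 had a scaled intensity of -0.440 and -2.23 in unstimulated WT, 20.7 and 16.5 in WT M1, 102 and 104 in unstimulated iNOS-/-, and 118 and 135 in iNOS-/- M1. On both probes each iNOS-/- array was brighter than each WT array. Unlike Ltf, Camp and Ngp, but like S100a8 and S100a9, Cpa3 was brighter in unstimulated iNOS-/- than in WT M1.

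In unstimulated cells Cpa3 was at least 16.1-fold higher in iNOS-/- by the probe at base 1136 and at least 18.3-fold by the probe at base 1259 (adjusted p = 3.53e-05 and 2.57e-05 from limma). In M1 cells it was 5.05-fold and 6.84-fold higher in iNOS-/- (adjusted p = 0.000375 and 0.000204). Activation of WT cells raised it at least 4.14-fold and 3.28-fold (adjusted p = 6.15e-05 and 5.43e-05). Under neqc the bounds were 4.64-fold and 5.20-fold between the unstimulated groups and 1.62-fold and 1.42-fold for WT activation, and with a floor of 16 the calls on WT activation were lost (adjusted p = 0.0571 and 0.315). On activation of iNOS-/- cells the values were 1.30-fold and 1.23-fold, which did not pass the test (adjusted p = 0.103 and 0.130). Both were called higher under neqc (adjusted p = 0.0244 and 0.0437), and the probe at base 1136 also without either WT M1 array (0.0454).

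The Cpa3 probe at base 75 was dimmer on the iNOS-/- arrays than the other probes of the gene. Its scaled intensity was 8.36 and 3.48 in unstimulated WT, 7.98 and 8.07 in WT M1, 21.6 and 18.0 in unstimulated iNOS-/-, and 31.9 and 19.8 in iNOS-/- M1. It too was brighter on each iNOS-/- array than on each WT array, 3.66-fold in unstimulated cells (adjusted p = 0.0302 from limma) and 3.13-fold in M1 cells (adjusted p = 0.0320). The call in unstimulated cells was lost without unstimulated WT replicate 2, either unstimulated iNOS-/- array or either WT M1 array, at adjusted p-values up to 0.129. That in M1 cells was lost without iNOS-/- M1 replicate 1, either unstimulated iNOS-/- array or either WT M1 array, at adjusted p-values up to 0.132. With a floor of 16 neither was called (adjusted p = 0.482 and 0.0993). Its changes on activation, 1.49-fold in WT and 1.27-fold in iNOS-/- cells, did not pass the test (adjusted p = 0.380 and 0.559), and the groups overlapped. Ms4a2, the other mast cell gene, stayed between -3.40 and 2.99 over the 8 arrays and was not detected on any.

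**Figure D3:**
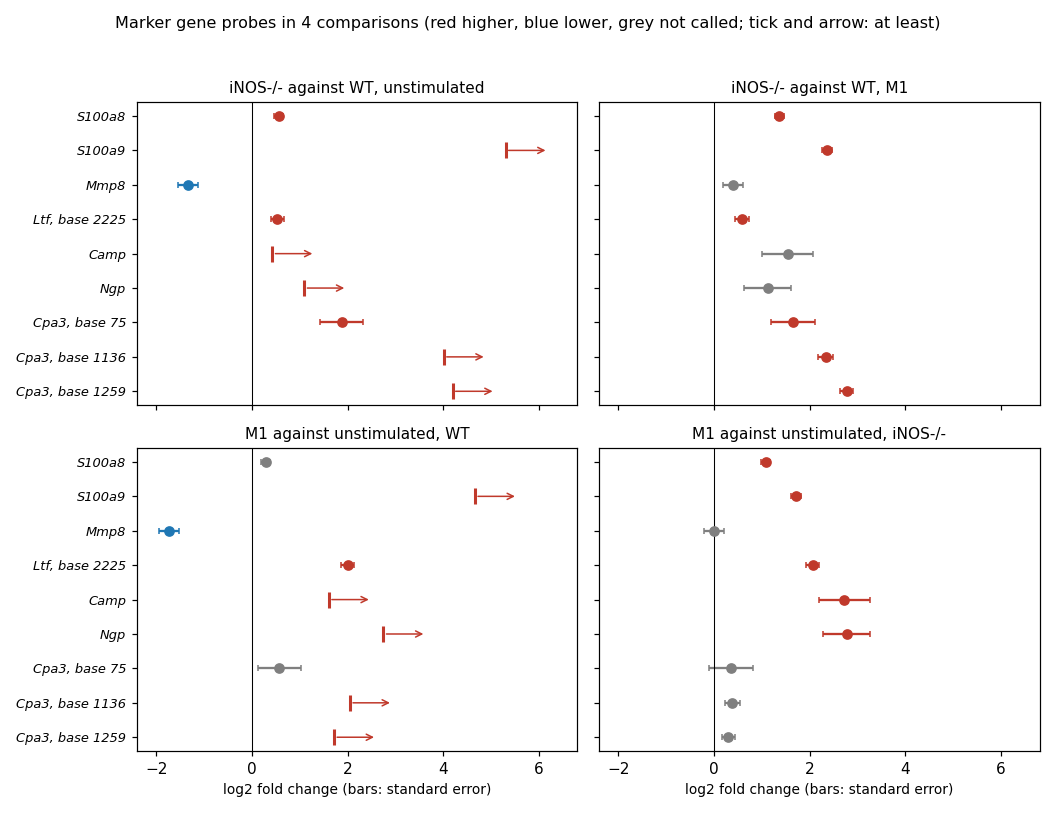
The log2 fold change (horizontal axis, bars are standard errors) of the 9 tested probes (vertical axis) in 4 comparisons. Red is called higher, blue called lower and grey not called, and a tick with an arrow is a lower bound for a probe undetected in unstimulated WT. Mmp8 alone lies to the left among called probes, and the Cpa3 probes are red for genotype in both upper panels and grey for activation of iNOS-/- cells.

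The response to activation differed between genotypes for 5 of the 9 probes, 2 with a higher and 3 with a lower response in iNOS-/-, where 19.4% and 22.6% of all probes were called in those directions. S100a8 responded more in iNOS-/- cells, by 0.80 on the log2 scale (standard error 0.13, adjusted p = 0.00720 from limma). This difference was 0.19 under neqc and under quantile normalization and then did not pass the test (adjusted p = 0.267 and 0.274). For Mmp8, called lower on activation in WT and not called in iNOS-/- cells, the difference was 1.72 (standard error 0.29, adjusted p = 0.00779). S100a9 and the Cpa3 probes at bases 1136 and 1259 responded less in iNOS-/- cells (adjusted p = 0.000123, 0.000355 and 0.000280), and their fitted differences depend on the floor because unstimulated WT was undetected. With a floor of 16 the split turned to 4 higher and 1 lower. The Cpa3 differences were then -0.16 and 0.09 and no longer called (adjusted p = 0.674 and 0.851), while Camp (1.47, adjusted p = 0.0175) and Ngp (1.12, adjusted p = 0.0132) were called higher in iNOS-/-. Under neqc Camp (0.81, adjusted p = 0.00715) and Ltf (0.39, adjusted p = 0.0447) were called higher too.

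The split of calls over all probes moved with the scaling, which sets the background for the counts above. Of the probes called on activation of WT cells, 59.3% were higher, and 44.4% were under neqc, 47.4% under quantile normalization and 49.0% with an intercept. Between the M1 groups 47.5% were higher, and 58.4% with an intercept. Of the differences in response 46.1% were higher, and 59.7% with an intercept. The intercept also moved the median of all probes to 0.24 between the M1 groups, -0.12 between the unstimulated groups, 0.20 for activation of iNOS-/- cells and 0.33 for the difference in response, and quantile normalization moved it to -0.13 for activation of iNOS-/- cells. The called directions of S100a8, S100a9, Mmp8, Ltf, Camp, Ngp and Cpa3 between groups were the same under all 3 of these scalings.

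The 7 tested genes were set beside other genes of neutrophils, mast cells and their relatives, in lists drawn from general knowledge. Over all probes 22.9% were higher and 25.3% lower between the M1 groups, and 16.7% and 15.4% between the unstimulated groups, which is the background for the counts that follow. Where an undetected group entered at its bound, median log2 fold changes in these comparisons were 0.48 and 0.29 for the neutrophil list, 0.03 and 0.43 for the mast cell list, -0.85 and -1.27 for the eosinophil list, -0.05 and -0.02 for the transcription factors, and 0.50 and -0.50 for the partners and inhibitors. Of 20 tested neutrophil granule and maturation genes, 8 were higher and 1 lower in iNOS-/- M1 than in WT M1. The largest differences were those of Stfa2 and Lcn2, both higher, and the 1 lower was Hp (adjusted p = 0.0498 from limma). Lcn2, the siderophore-binding lipocalin of specific granules, had a scaled intensity of 154 and 135 in unstimulated WT, 546 and 527 in WT M1, 168 and 181 in unstimulated iNOS-/-, and 2940 and 3253 in iNOS-/- M1 (log2 fold change between the M1 groups 2.53, standard error 0.11, adjusted p = 0.000156 from limma). Stfa2, a stefin that inhibits cysteine proteases, was at 22.8 and 13.1 in WT M1 and at 243 and 211 in iNOS-/- M1 (adjusted p = 0.000767). Between the unstimulated genotypes 6 of the 20 were higher and 1 lower. The 1 lower was Chi3l3, at 2830 and 2827 in unstimulated WT and at 1299 and 1268 in unstimulated iNOS-/- (adjusted p = 0.000610 from limma). Chi3l3 was higher in iNOS-/- M1 than in WT M1 (adjusted p = 0.000977). Stfa1 and Stfa2, both dark in unstimulated WT like S100a9, were at least 18.2-fold and 5.97-fold higher in iNOS-/- (adjusted p = 0.000512 and 0.000600). On activation 8 rose and 1 fell in WT cells, and 9 rose and 0 fell in iNOS-/- cells. The 8 included Chi3l1, Stfa1, Stfa2 and Trem1, so the count in WT cells is a description too. Over all probes the shares on activation were 20.8% and 14.3% in WT and 25.2% and 25.1% in iNOS-/- cells. Neutrophil elastase, listed on the array as Ela2, had a scaled intensity between 2.03 and 10.6 over the 8 arrays. Cathepsin G (Ctsg), the receptor Cxcr2, Retnlg and Olfm4 did not pass the detection filter. Csf3r, Cd177, Mmp9 and Padi4 passed it and were called in neither genotype comparison, and Ly6g was not on the array.

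Among 11 tested mast cell and basophil genes, 3 were higher and 2 lower in iNOS-/- in M1 cells, and 3 were higher and 3 lower in unstimulated cells. Of the 3 higher in unstimulated cells, Prss34 was undetected in unstimulated WT and at least 1.36-fold higher in iNOS-/-. It lost that call with an intercept in the scaling line. The shares in M1 cells lay near those of all probes. Hdc, the enzyme that makes histamine, had a scaled intensity of 2.90 and 6.69 in unstimulated WT, 379 and 352 in WT M1, 169 and 185 in unstimulated iNOS-/-, and 1840 and 1756 in iNOS-/- M1. Mitf, a transcription factor of mast cells and pigment cells, was at 88.1 and 101 in unstimulated WT, 45.4 and 39.4 in WT M1, 52.3 and 59.7 in unstimulated iNOS-/-, and 117 and 143 in iNOS-/- M1. Gata2, a transcription factor of mast cells and of early progenitors that was named after its values were seen, had a scaled intensity of 34.2 and 33.6 in unstimulated WT, 132 and 111 in WT M1, 135 and 135 in unstimulated iNOS-/-, and 273 and 274 in iNOS-/- M1. Hdc was higher in iNOS-/- M1 than in WT M1 by 2.30 on the log2 scale (standard error 0.38, adjusted p = 0.00573 from limma), Mitf by 1.61 (adjusted p = 0.000962) and Gata2 by 1.18 (standard error 0.11, adjusted p = 0.000757). Hdc and Gata2 were lowest in unstimulated WT and rose on activation of iNOS-/- cells (adjusted p = 0.00132 and 0.000936). Mitf, Ltc4s and Hpgds, listed on the array as Ptgds2, were instead lower in unstimulated iNOS-/- than in unstimulated WT (adjusted p = 0.0187, 0.00173 and 0.00182). Ltc4s, the leukotriene C4 synthase, and the surface receptor Cd200r3 were lower in iNOS-/- M1 than in WT M1 (adjusted p = 0.00245 and 0.00358). The proteases Cma1, Tpsab1, Mcpt1, Mcpt2, Mcpt4 and Mcpt8 did not pass the detection filter.

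The tested genes of the eosinophil list were Prg2 and genes of the Ear family, and the Ear genes called between genotypes were lower in iNOS-/- cells. Of 8 tested, 6 were lower and 0 higher in iNOS-/- M1 than in WT M1, and 6 were lower and 1 higher in unstimulated iNOS-/- than in unstimulated WT cells. The genes lower in M1 cells were led by Ear11 and Ear12, ribonucleases of the eosinophil-associated family (adjusted p = 0.000273 and 0.00168 from limma). Ear11 had a scaled intensity of 1256 and 1212 in unstimulated WT, 969 and 1016 in WT M1, 418 and 420 in unstimulated iNOS-/-, and 394 and 373 in iNOS-/- M1. The Ear genes are close paralogs, so a probe may capture RNA from more than 1 of them, and the counts may hold 1 signal more than once. Prg2, the major basic protein, was the 1 gene called higher in unstimulated iNOS-/-. It had a scaled intensity of -1.14 and -3.84 in unstimulated WT, 13.7 and 11.7 in WT M1, 7.01 and 5.36 in unstimulated iNOS-/-, and 6.92 and 6.97 in iNOS-/- M1, where it was not detected. Between the unstimulated groups Prg2 was at least 1.09-fold higher in iNOS-/- (adjusted p = 0.000383 from limma). Its lower call between the M1 groups was lost, with a change of sign, when the scaling line had an intercept. Epx, Prg3, Siglec5, Ccr3 and Il5ra did not pass the detection filter.

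Of 8 tested transcription factors of granule genes, 2 were higher and 3 lower in iNOS-/- M1 than in WT M1, and 1 was higher and 2 lower between the unstimulated genotypes. Gfi1, a repressor required for neutrophil maturation, had a scaled intensity of 4.93 and 5.09 in unstimulated WT, 174 and 152 in WT M1, 3.33 and 7.07 in unstimulated iNOS-/-, and 472 and 437 in iNOS-/- M1. It rose at least 28.9-fold on activation of WT cells (adjusted p = 0.000538 from limma). Cebpe, the C/EBP factor of specific granule genes, had a scaled intensity of 32.6 and 34.2 in unstimulated WT, 105 and 101 in WT M1, 88.6 and 76.7 in unstimulated iNOS-/-, and 52.2 and 46.6 in iNOS-/- M1. Activation thus raised Cebpe in WT (adjusted p = 0.000545) and lowered it in iNOS-/- cells (adjusted p = 0.00381). The signals of Camp and Ngp were brightest in iNOS-/- M1, where Cebpe was below both WT M1 and unstimulated iNOS-/-. Cebpa, which acts earlier in the lineage, was not detected in iNOS-/- M1 and was at least 6.13-fold lower there than in WT M1 (adjusted p = 0.000591).

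Among 8 tested partners and inhibitors, 4 were higher and 2 lower in iNOS-/- M1 than in WT M1, and 2 were higher and 5 lower between the unstimulated genotypes. Fcer1g and Slpi lost their higher calls between the M1 groups under neqc and under quantile normalization, Fcer1g with a change of sign. Under quantile normalization 2 of the list were then higher and 2 lower. Serpinb1a, an inhibitor of neutrophil serine proteases, was at 8.22 and 7.16 in WT M1 and at 196 and 216 in iNOS-/- M1 (adjusted p = 0.000695 from limma). Tlr4, a receptor for S100a8 and S100a9 as well as for LPS, was at 342 and 286 in WT M1 and at 65.0 and 71.5 in iNOS-/- M1 (adjusted p = 0.000290). Timp2, an inhibitor of matrix metalloproteases such as Mmp8, was at 1084 and 1088 in unstimulated WT, 224 and 228 in WT M1, 166 and 165 in unstimulated iNOS-/-, and 29.7 and 37.0 in iNOS-/- M1. Like Mmp8, Timp2 was brightest in unstimulated WT. Timp1, another such inhibitor, was brightest in iNOS-/- M1 instead, at 181 and 210.

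**Figure D4:**
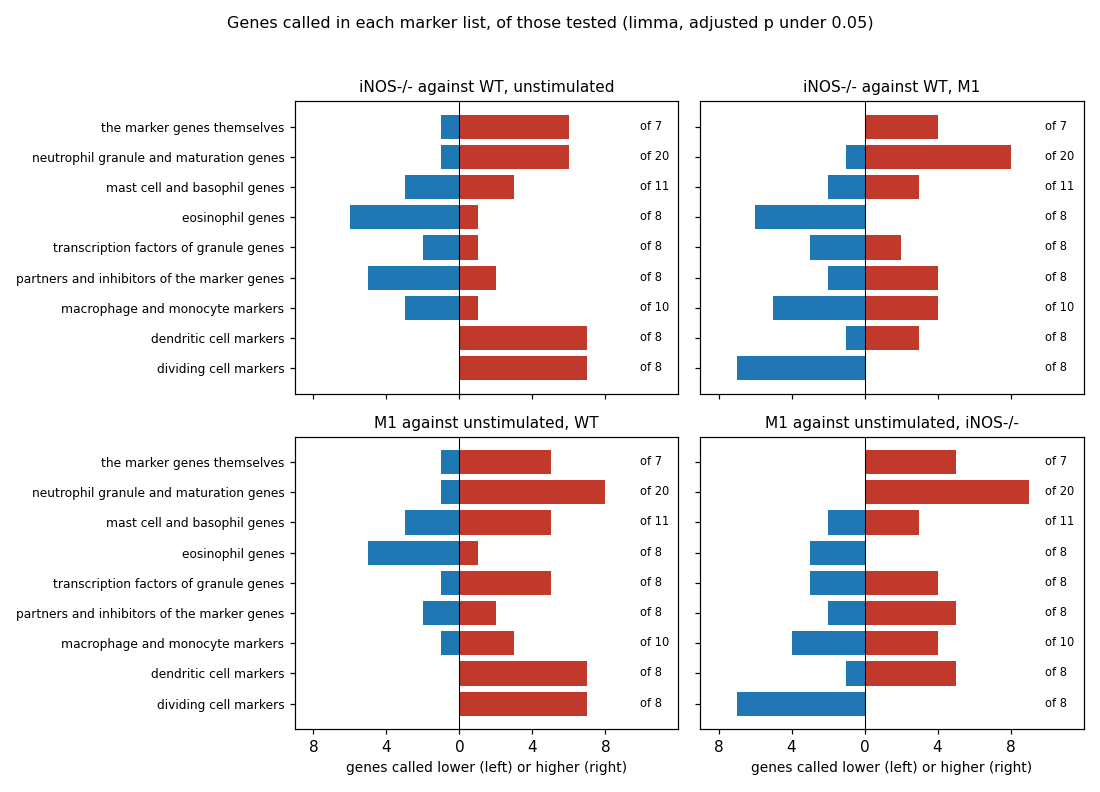
Number of genes called higher (red, to the right) or lower (blue, to the left) in each marker list (vertical axis), beside the number tested, in 4 comparisons (limma, adjusted p under 0.05). Genes of the eosinophil list, mainly Ear genes, lie mostly to the left between genotypes, and neutrophil genes mostly to the right in every panel. Dividing cell markers change side between the unstimulated and the M1 genotype comparison. Counts against unstimulated WT include genes that were undetected there.

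Markers of other cell types also differed between groups, not always in the direction of the marker genes. Of 8 tested dendritic cell markers, 7 were higher and 0 lower in unstimulated iNOS-/- than in unstimulated WT cells. The same counts held for activation of WT cells, where 20.8% of all probes were higher and 14.3% lower. Their summed scaled intensity was 843 to 846 in unstimulated WT, 16649 to 17191 in WT M1, 14223 to 15098 in unstimulated iNOS-/- and 35295 to 37126 in iNOS-/- M1. Of these 8 markers, 6 were detected on both unstimulated WT arrays. Between the M1 groups 3 were higher and 1 lower in iNOS-/-. The sums were carried mainly by the chemokine Ccl17, at 18992 and 19646 in iNOS-/- M1, and by Il4i1, an amino acid oxidase, at 13174 and 14460. Cd209a was undetected in unstimulated WT and in iNOS-/- M1, and Itgax was called in neither genotype comparison. Of 8 tested dividing cell markers, 7 were higher in unstimulated iNOS-/- than in unstimulated WT and 7 were lower in iNOS-/- M1 than in WT M1, with sums of 572 to 632, 1842 to 1953, 2118 to 2137 and 714 to 722 in the same order of groups. The macrophage and monocyte markers summed to 31961 to 32404, 33833 to 36344, 25592 to 26697 and 38053 to 39302. Lyz2 was the largest part, at 20286 and 21461 in iNOS-/- M1. Of the 10 tested, 4 were higher and 5 lower in iNOS-/- M1 than in WT M1. Between the unstimulated genotypes 1 was higher and 3 lower. Emr1 and Ly6c1 lost their higher calls between the M1 groups under neqc and under quantile normalization. The 10 marker genes themselves summed to 1121 to 1142, 1413 to 1534, 1768 to 1836 and 3978 to 4112. Most of that came from S100a8, at 2839 and 2945 in iNOS-/- M1. The part of a changed cell mixture in the values of the granulocyte and mast cell genes was not tested.

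Over the 8 arrays the log2 intensities of Camp and Ngp had a Pearson correlation of 0.989 and those of the Cpa3 probes at bases 1136 and 1259 of 0.995, while S100a8 and S100a9 had 0.751. Mmp8 correlated below 0 with every other tested probe, from -0.876 with S100a9 to -0.430 with S100a8. The probes most like each gene over the 8 arrays were those of Sdcbp2 and Nsun4 for S100a8 (0.994 and 0.993), H2-Ab1 and Lrrk1 for S100a9 (0.998 and 0.998), Serpina3f and Batf2 for Ltf (0.997 and 0.996), Nr4a3 and Gbp6 for Camp (0.992 and 0.991), and Arhgef2 and Ptpn6 for Ngp (0.992 and 0.990). For Mmp8 they were Snap29 and the gene listed as Mir16, which RefSeq names Gde1 and which is no microRNA (0.983 and 0.982). For Cpa3 they were Nap1l1 and Aif1 by the probe at base 1136 (0.997 and 0.996) and Rab39 and Tpx2 by that at base 1259 (0.998 and 0.997). With 4 groups of 2 arrays these figures describe group patterns. Between 40 and 320 probes lay above 0.95 for each of the probes named here.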

How the data were processed

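RNA of the 8 samples was hybridised to Illumina bead arrays (MouseRef-8 v2.0 in the series text, MouseWG-8 in the methods). The authors deposited un-normalized bead-averaged probe intensity values and, beside each, a detection p-value, both written by GenomeStudio. The file header names no background subtraction, yet between 25.2% and 27.2% of intensities per array lie below 0, as after a subtraction, so none was added. The submitters' processing notes name limma 3.14.4.

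Groups and replicate numbers came from the labels. Each array was scaled by a robust zero-intercept fit (rlm in MASS 7.3.60.0.1) over probes that kept their rank against the mean array, with factors from 0.813 to 1.30. Such probes had a rank change under 0.05 of their rank on the mean array, and both ranks between 0.5 and 0.9 of all probes. Values under 1 were set to 1 before log2 was taken, whereas the study's methods set only negative values to 1. In limma 3.58.1 (R 4.3.3), group means were fitted over all 8 arrays for probes detected (p under 0.05) on at least 2 arrays, with Benjamini-Hochberg adjustment over 13868 probes. Bounds for a probe undetected on both arrays of a group set the bright group's mean log2 value against the dim group's, where each dim array counts with at least its lowest detected value. The number of arrays limits the precision.

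Every probe of the 10 genes is reported. Of other lists, the brightest probe stands for a gene, and genes named are mainly the 2 called with the largest change each way in a comparison. Other list genes named, and genes that did not pass the filter, were chosen after their values were seen. The marker genes and lists were chosen with earlier results of these data known. Motifs were searched in the 250 bases before RefSeq starts. The fit was tested on simulated data with known changes. Alternatives were neqc, quantile normalization, an intercept in the line, a floor of 16, other detection filters, fewer arrays, an intensity trend, a replicate block and each array left out in turn. The alternatives for bounds were added after seeing the data.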

Additional observations from a re-analysis of the deposited data

Results flagged for a closer look

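The response to LPS plus IFN-γ differed between genotypes for 5 probes by the limma interaction, given as iNOS-/- less WT on the log2 scale. S100a8 had 0.80 (standard error 0.13, adjusted p = 0.00720) and Mmp8 1.72 (standard error 0.29, adjusted p = 0.00779). The S100a8 difference was 0.19 and not called under neqc and under quantile normalization (adjusted p = 0.267 and 0.274). S100a9 had -5.44 (standard error 0.15, adjusted p = 0.000123), the Cpa3 probe at base 1136 had -4.16 (standard error 0.22, adjusted p = 0.000355) and the Cpa3 probe at base 1259 had -3.91 (standard error 0.19, adjusted p = 0.000280). The last 3 were undetected in unstimulated WT, so these sizes rest on the floor of 1 and are no bounds. Raising the floor to 16 ended the calls of both Cpa3 differences (adjusted p = 0.674 and 0.851). Set side by side, S100a9 rose at least 25.3-fold in WT (6.75-fold under neqc) and 3.28-fold in iNOS-/- cells. The Cpa3 probe at base 1136 was at least 4.14-fold higher after activation in WT (1.62-fold under neqc, and adjusted p = 0.0571 once the floor was 16) and had a ratio of 1.30 in iNOS-/- cells that was not called.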

How the results depend on the processing

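The number of the 9 probes called stayed within 1.5 times its value under every alternative run. It lay between 4 and 7 with single arrays left out for iNOS-/- M1 against WT M1, and between 6 and 8 for the unstimulated comparison. The calls of S100a8, S100a9 and the Cpa3 probes at bases 1136 and 1259 between the M1 groups held under each alternative run. So did those of Mmp8 between the unstimulated groups and of S100a9 on activation of iNOS-/- cells. The calls of S100a9 against unstimulated WT held too, but it was dark in that group and had to differ from it.

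Of 756 refitted log2 fold changes, 654 kept direction and side of the threshold, 56 lost and 25 gained a call, and 21 changed sign; causes were not tested. Changes of sign with neqc were Mmp8 on activation of iNOS-/- cells (0.0557) and the differences in response of Camp (0.81), Ngp (0.39) and Cpa3 at base 75 (0.27). With quantile normalization they were Mmp8 (0.0726) and Cpa3 at base 75 (0.28) in those same comparisons. With an intercept they were Mmp8 (0.0390), the differences in response of Camp (0.84) and Cpa3 at base 75 (0.80), and Cpa3 at base 75 on activation of WT cells (-0.27). With a floor of 16 they were the differences in response of Camp (1.47), Ngp (1.12), Cpa3 at base 75 (0.35) and Cpa3 at base 1259 (0.0879). With single arrays left out, Mmp8 on activation of iNOS-/- cells ran from -0.290 to 0.274 and Cpa3 at base 75 on activation of WT cells from -0.0592 to 1.21. The differences in response ran from -1.38 to 0.0848 for Camp, -0.131 to 0.244 for Ltf and -0.856 to 0.408 for Cpa3 at base 75.

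A floor of 16 lies above several values of Camp, Ngp and Cpa3 and ended the calls of Camp (0.17) and of Cpa3 at bases 1136 (0.54) and 1259 (0.21) on activation of WT cells. It also ended the unstimulated genotype calls of Camp, Ngp and Cpa3 at base 75 (0.30) and that of Cpa3 at base 75 between the M1 groups (0.65), and made calls of the differences in response of Camp and Ngp. Bounds were smaller under neqc, at least 10.7-fold for S100a9 and 4.64-fold for Cpa3 at base 1136 between the unstimulated groups. Of 53 other list genes called between the M1 groups, 4 lost the call under neqc, 5 under quantile normalization and 3 with an intercept.

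The replicate numbers did not pair the arrays: deviations of same-numbered arrays correlated between -0.038 and 0.025 across groups. With the number as a replicate block, 7 of the 9 probes were called between the unstimulated groups (Ltf adjusted p = 0.0705, Camp 0.0554), and 6, 7, 5 and 5 in the M1 genotype comparison, activation of WT, activation of iNOS-/- cells and the difference in response. The chip as a block was not run, since the columns name no chip. Signals near background, as for Camp and Ngp, limit what these arrays resolve.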
